A study of Mus musculus with 24 samples.

Results

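The genes of the cyclic AMP (cAMP) pathway were followed through the mouse striatum: the adenylyl cyclases (Adcy), the phosphodiesterases (Pde), the catalytic and regulatory subunits of protein kinase A (Prkac, Prkar), its anchoring proteins (Akap) and the transcription regulators Creb1, Crem, Atf1 and Crtc1. Members were chosen by gene symbol, with the brightest probe standing for each gene. This gave 61 of the 19057 genes with a probe of 1 symbol. Of these, 52 had a mean log2 intensity above 7.05, the 40th percentile of all probes, and were tested among 13748 genes. They were 8 of 10 cyclases, 20 of 25 phosphodiesterases, 2 of 2 catalytic subunits, 3 of 4 regulatory subunits, 16 of 16 anchoring proteins and 3 of 4 of the transcription regulators. The 9 left untested had means of 6.54 (Pde9a), 6.56 (Pde6b), 6.77 (Atf1), 6.78 (Prkar2a), 6.78 (Adcy10), 6.997 (Pde11a), 7.01 (Pde4c), 7.045 (Pde6a) and 7.047 (Adcy5). Those just inside were Pde6c at 7.12, Akap3 at 7.22 and Pde3a at 7.28.

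The 24 arrays each held striatal RNA of 1 C57BL/6J mouse aged 6 to 10 weeks. All mice had drunk a sweet or drug solution over a long period, either saccharin, the control drink, or morphine, and all were killed 4 h after an injection. The 4 groups of 6 were saccharin drinkers given saline (10 ml/kg), saccharin drinkers given morphine (20 mg/kg, intraperitoneal), morphine drinkers given saline and morphine drinkers given morphine. The labels state neither the amounts drunk nor the time from the last drink to death, and every group had been injected, so no group was untouched.

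Adenylyl cyclases make cAMP from ATP, phosphodiesterases break cyclic nucleotides down, and cAMP frees the catalytic subunits of kinase A from their regulatory subunits. Anchoring proteins hold the kinase at its targets, and CREB, a transcription factor that kinase A phosphorylates, binds the cAMP response element of many promoters together with coactivators such as Crtc1. The opioid receptors that morphine activates couple to inhibitory G proteins, which slow the cyclases. In cells kept in an opioid, cyclase activity is known to recover and to overshoot when the drug is removed, and medium spiny neurons, the main cells of the striatum, carry cAMP signals from dopamine and adenosine receptors.

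A perfect cAMP response element reads TGACGTCA and a core element TGACG. Both were searched on both strands in RefSeq promoters of build GRCm38.p6, which run from 250 bases before to 50 after a gene's start and were listed for 49 of the 61 members in 92 windows. The perfect element lay in the window of 1 member, Prkar1a (2.04% of the 49, against 2.03% of 27025 genes). The core, which every perfect element contains, lay in 16 members (32.7%, against 23.0% of genes). Members had more windows per gene, 92 for 49 against 32851 for 27025, and counted by window the core lay in 19.6% of theirs and 20.8% of all. Shown are the perfect element and the cores of Adcy9 and Pde4b, members whose values are described under their roles, each 5′ to 3′ on the gene's strand with the element in capitals:
Prkar1a, chr11:109650880-109650927 (+): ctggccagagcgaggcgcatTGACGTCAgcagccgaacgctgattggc
Adcy9, chr16:4420499-4420542 (-): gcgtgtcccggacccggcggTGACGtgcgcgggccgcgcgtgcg
Pde4b, chr4:102421501-102421545 (+), core on the opposite strand: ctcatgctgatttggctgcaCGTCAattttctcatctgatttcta
The elements began 49, 24 and 34 bases before a listed start of the gene. The perfect element lay in 2 overlapping windows of Prkar1a, and it lay past the start of the other window. These matches describe the letters of the windows and were not tested for binding.

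On 2 arrays of morphine drinkers, replicate 32 after saline and replicate 31 after morphine, both on chip 2, all 23 tested markers of medium spiny neurons (25 were listed) lay below the range of the other 22 arrays. Their mean log2 intensity was 9.93 and 9.75, against 12.07 to 12.95 elsewhere. The mean of 12 tested markers of cortical projection neurons was 11.10 and 11.23, against 9.31 to 11.08, and 4 of the 12 were above the range of the other arrays. Every comparison was therefore run with and without these 2 arrays. The injection comparison in saccharin drinkers holds neither, so its differences stayed the same and its p-values moved only through the spread shared by all groups. Fewer cells of a type and less RNA per cell cannot be told apart in such samples.

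None of the 52 tested members passed the threshold of an adjusted p of 0.05 in any comparison, by limma's moderated test with group and chip as terms and adjustment over 13748 genes. A morphine injection was compared with saline within each drink. In saccharin drinkers 0 members were called, where 51 genes in all were (0.371%), and 6 of the 52 (11.5%) had an unadjusted p under 0.05 against 7.69% of all genes. In morphine drinkers 0 members were called beside 9 genes (0.0655%), and 2 (3.85%) were under the unadjusted level against 6.36%. Averaged over both drinks, 0 members were called beside 95 genes (0.691%), with 3 (5.77%) under the unadjusted level against 8.29%.

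Morphine drinkers were compared with saccharin drinkers under each injection, for the difference that went with the drink. Of the 13748 genes tested, 0 were called under saline (0%), under morphine (0%) or averaged over the injections (0%), and so 0 of the 52 tested members. Unadjusted, 1 member (1.92% against 4.58% of genes), 3 members (5.77% against 5.5%) and 1 member (1.92% against 5.24%) fell under 0.05. The interaction, the injection difference in morphine drinkers minus that in saccharin drinkers, called 0 members and 0 genes (0%), with 4 members (7.69% against 5.24%) under the unadjusted level. The F test over the 4 groups called 0 members and 53 genes (0.386%). Its 3 members under the unadjusted level (5.77% against 6.87%) were Akap6, Crem and Adcy9.

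Without the 2 chip 2 arrays 0 members were again called by limma in each comparison. For the injection this stood beside 0.436% of genes in saccharin drinkers, 0.0873% in morphine drinkers and 0.713% averaged, and for the F test beside 0.371%. For the drink and the interaction it stood beside 0%. For the injection, 8 members were under the unadjusted level in saccharin drinkers (15.4% against 9.38% of genes). There were 2 in morphine drinkers (3.85% against 7.09%) and 5 averaged (9.62% against 9.16%). For the drink there were 2 under saline (3.85% against 5.35%), 5 under morphine (9.62% against 5.01%) and 2 averaged (3.85% against 4.19%). The interaction had 5 (9.62% against 6.79%) and the F test 6 (11.5% against 7.63%). Those 6 were Adcy7, Akap4, Akap6, Crem, Pde3a and Pde6c, and Adcy9 was not among them.

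The members' differences were small and ran both ways. A morphine injection left 28 members higher and 24 lower in saccharin drinkers, with a median log2 difference of 0.02 (-0.01 over all genes), and 24 higher and 28 lower in morphine drinkers, with a median of -0.01 (0.00). Morphine drinking left 22 higher and 30 lower under saline (median -0.02) and 26 higher and 26 lower under morphine (median 0.00). Without replicates 32 and 31, drinking left 26 higher and 26 lower under saline (median 0.00, against -0.01 over all genes). Under morphine it left 32 higher and 20 lower (median 0.03, against 0.00). The injection in morphine drinkers then left 27 higher and 25 lower (median 0.00, against 0.01). The precision came from 6 arrays a group. The 95% interval of the difference lay within 1 log2 unit either way, a change of 2-fold, for 48 members in the first comparison, 52 in the second, 50 in the third and 51 in the fourth. It lay within 0.5 units, or 1.41-fold, for 27, 29, 31 and 25 of the 52, and for the others a difference of this smaller size was not excluded. Over 22 arrays the interval lay within 0.5 units for 32, 31, 32 and 33 members.

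**Figure D1:**
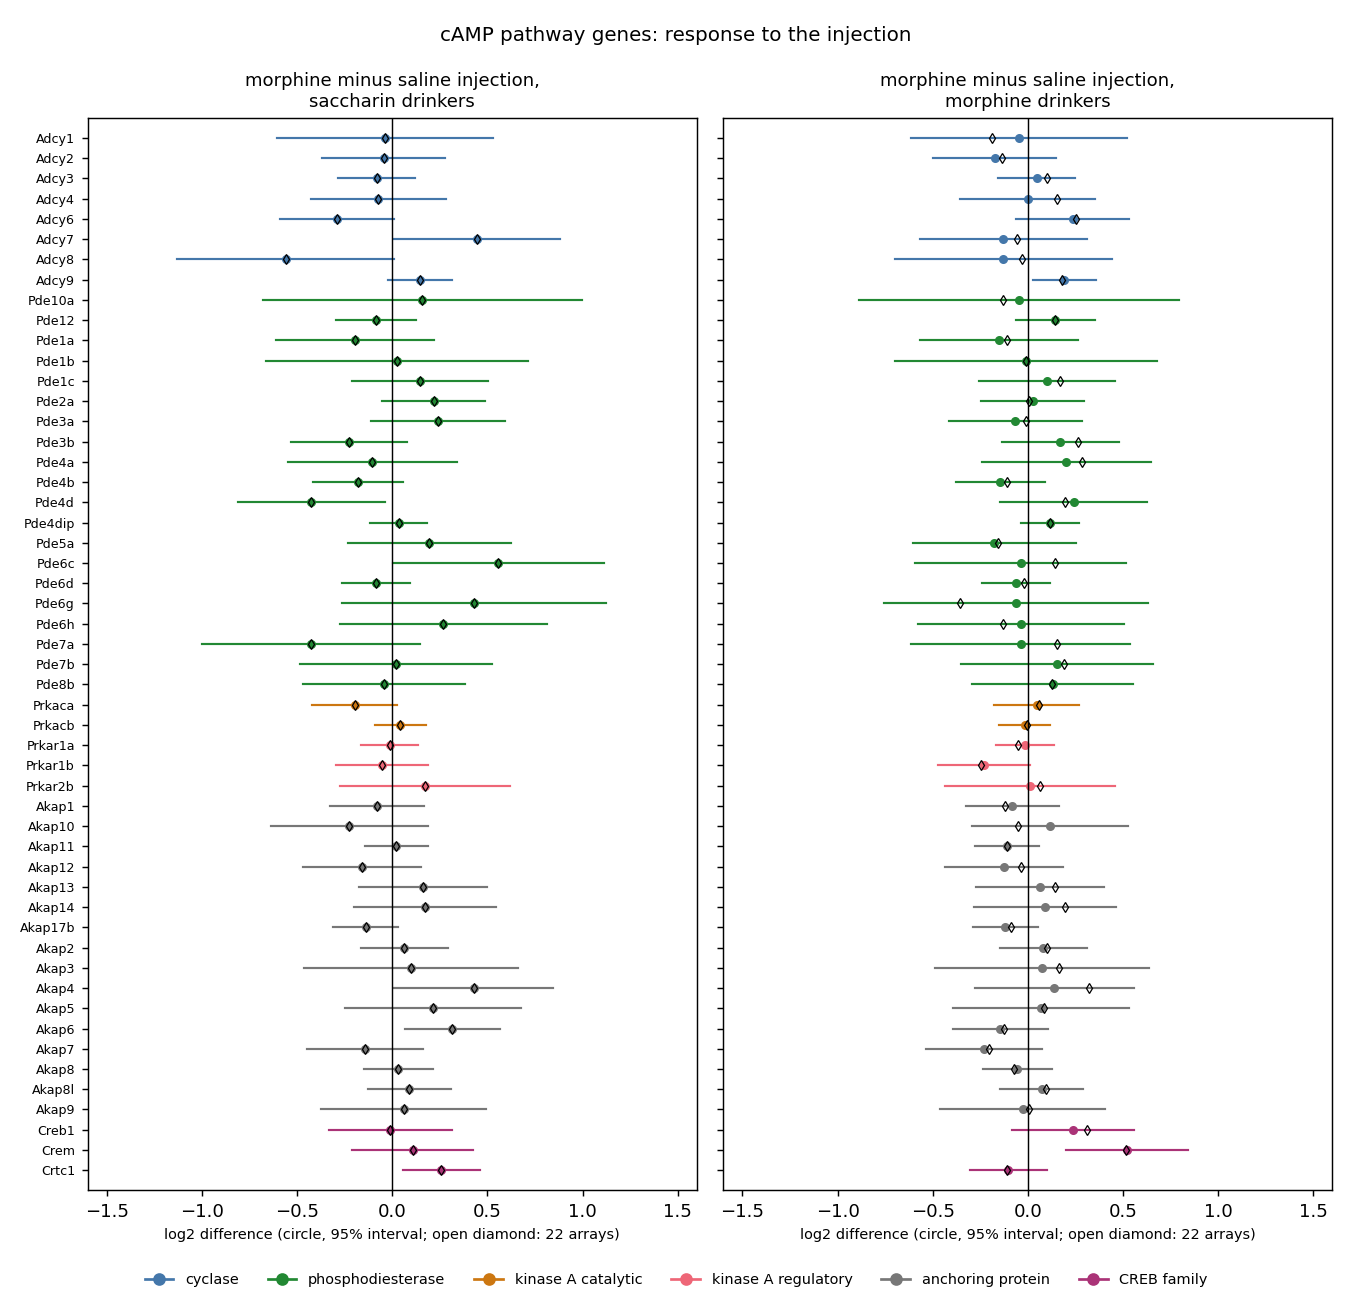
Log2 difference of morphine minus saline injection (horizontal axis) for each of the 52 tested members, in saccharin drinkers and in morphine drinkers. Circles are values of the fit over 24 arrays with 95% intervals, and open diamonds are values without the 2 chip 2 arrays. Crem in morphine drinkers stands highest there at 0.52, and 0 members passed the adjusted threshold.

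Among the cyclases, Adcy9, a widely expressed isoform, had the smallest p for the injection averaged over both drinks. Its log2 intensity had a lowest, median and highest value of 10.32, 10.46 and 11.20 in saccharin drinkers given saline. The same values were 10.38, 10.64 and 11.09 in saccharin drinkers given morphine. They were 10.41, 10.53 and 10.95 in morphine drinkers given saline, and 10.56, 10.72 and 11.21 in those given morphine. The groups overlapped, and in each group the highest value came from chip 2. Within chips the morphine-injected mice were higher on 6 of 6 chips, by 0.17 log2 units averaged over drinks (SE 0.0560, adjusted p = 0.313 by limma). The difference was 0.15 in saccharin drinkers and 0.19 in morphine drinkers. Adcy9 passed under a single alternative, with limma's array weights (0.21, adjusted p = 0.0266). Over the alternatives its adjusted p ran from 0.0266 to 0.9995.

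Adcy6, a cyclase that calcium inhibits, was ordered differently by the injection in the 2 kinds of drinkers. In saccharin drinkers its lowest, median and highest values were 9.35, 9.71 and 10.28 after saline and 9.13, 9.50 and 9.82 after morphine. In morphine drinkers they were 9.16, 9.52 and 9.85 after saline and 9.53, 9.77 and 10.00 after morphine. All 4 groups overlapped. The injection difference was -0.29 in the first pair and 0.23 in the second, and the interaction was 0.52 (SE 0.200, higher on 6 of 6 chips, adjusted p = 0.939 by limma). A second Adcy6 probe gave an interaction of 0.03 and an injection difference of -0.34 in morphine drinkers, so the probes disagreed in sign there.

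Adcy7 had lowest, median and highest values of 7.36, 8.15 and 8.75 in saccharin drinkers given morphine. In saccharin drinkers given saline they were 6.92, 7.90 and 8.23, in morphine drinkers given saline 7.36, 7.88 and 7.99, and in morphine drinkers given morphine 7.04, 7.76 and 7.99. After morphine, 4 of the 6 saccharin drinkers were above every morphine drinker, and the groups overlapped. The drink difference under morphine was -0.52 (adjusted p = 0.868 by limma), and -0.65 without the 2 arrays (adjusted p = 0.971). Further probes gave -0.20 and -0.24.

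The other cyclases named were Adcy3, Adcy1, Adcy8 and Adcy5. The olfactory and neuronal isoform Adcy3 had medians of 9.38, 9.19, 9.29 and 9.31 in the order saccharin with saline, saccharin with morphine, morphine with saline and morphine with morphine, the order kept for medians below. Adcy1 and Adcy8, isoforms that calcium and calmodulin activate, had medians of 11.50, 11.23, 11.72 and 11.45, and of 9.60, 9.23, 9.41 and 9.37. For Adcy8 the injection difference in saccharin drinkers was -0.56 (95% interval -1.13 to 0.01), the largest in size of the 52 members there. Its values were 9.10 to 10.10 after saline and 8.36 to 9.57 after morphine. Neither replicate 32 nor replicate 31 is in that comparison, but both enter the spread that the groups share in the fit. The plain SD of Adcy8 over all arrays, which also holds group and chip differences, was 0.542 with them and 0.418 without. The averaged drink difference of Adcy1 was 0.33 over 24 arrays and 0.09 over 22. Adcy5, the cyclase best known in the striatum, was listed by 1 dim probe with a mean of 7.05, just under the filter, and was not tested. Its group medians ran from 6.95 to 7.16, inside the spread within groups.

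Of the phosphodiesterases, Pde4d, which hydrolyses cAMP, had the largest interaction in size over 24 arrays. In saccharin drinkers its lowest, median and highest values were 8.29, 8.54 and 8.89 after saline and 7.55, 8.14 and 8.64 after morphine. In morphine drinkers they were 7.52, 8.26 and 8.56 after saline and 7.98, 8.49 and 8.93 after morphine. The groups overlapped in both pairs. The injection difference was -0.42 in saccharin drinkers, lower on 4 of 6 chips (SE 0.184, adjusted p = 0.616 by limma), and 0.24 in morphine drinkers. The interaction was 0.66 (SE 0.260, higher on 5 of 6 chips, adjusted p = 0.939 by limma), and its second probe gave -0.12. Over 22 arrays it was 0.62, and that of Pde6g, at -0.79, was larger in size.

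Pde4b, another cAMP-specific enzyme, had medians of 11.01, 10.83, 10.88 and 10.80, and its averaged injection difference was -0.16 (adjusted p = 0.620 by limma). Pde4a of the same family had medians of 8.61, 8.52, 8.68 and 8.60. Pde3a and Pde3b, which cGMP inhibits, went opposite ways with the drink under morphine. Their differences were -0.35 and 0.30 (both adjusted p = 0.868 by limma), and -0.44 and 0.38 without the 2 arrays. Pde3b was higher in the morphine drinker on 6 of 6 chips, with 7.03, 7.27 and 7.51 in saccharin drinkers and 7.20, 7.55 and 8.10 in morphine drinkers as lowest, median and highest, and the groups overlapped.

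The striatal enzymes Pde10a, Pde1b and Pde7b, of which Pde10a and Pde1b are hallmarks of medium spiny neurons, had group medians that differed by less than the spread within groups. For Pde10a they were 10.96, 11.03, 10.92 and 10.72, for Pde1b 15.50, 15.52, 15.62 and 15.67, and for Pde7b 8.92, 8.94, 8.74 and 8.93. The calcium-activated Pde1a gave 10.75, 10.57, 10.75 and 10.84, the cGMP-stimulated Pde2a 12.12, 12.37, 12.22 and 12.22, and the cAMP-specific Pde8b 8.76, 8.61, 8.56 and 8.87. The cAMP-specific Pde7a had 8.46, 8.63 and 9.97 in saccharin drinkers given saline and 8.02, 8.43 and 9.11 in morphine drinkers given saline as lowest, median and highest, and the groups overlapped. The drink difference was -0.43 (adjusted p = 0.988 by limma).

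The symbols Pde12, Pde6d and Pde4dip do not name cyclic nucleotide phosphodiesterases. Pde12 acts on 2′-5′ oligoadenylate in mitochondria, Pde6d is a chaperone of prenylated proteins and Pde4dip a centrosome and Golgi scaffold. Pde12 was the single member under the unadjusted level for the drink under saline, with 8.93, 9.10 and 9.23 in saccharin drinkers and 8.47, 8.93 and 9.14 in morphine drinkers as lowest, median and highest. The groups overlapped, the difference was -0.23 (adjusted p = 0.988 by limma), and its second probe gave 0.18. The retinal cGMP phosphodiesterase genes Pde6c, Pde6g and Pde6h had mean intensities not far above the filter. Pde6c, at 7.12 just inside it, differed by 0.56 after the injection in saccharin drinkers (95% interval 0.00 to 1.11, adjusted p = 0.645 by limma).

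**Figure D2:**
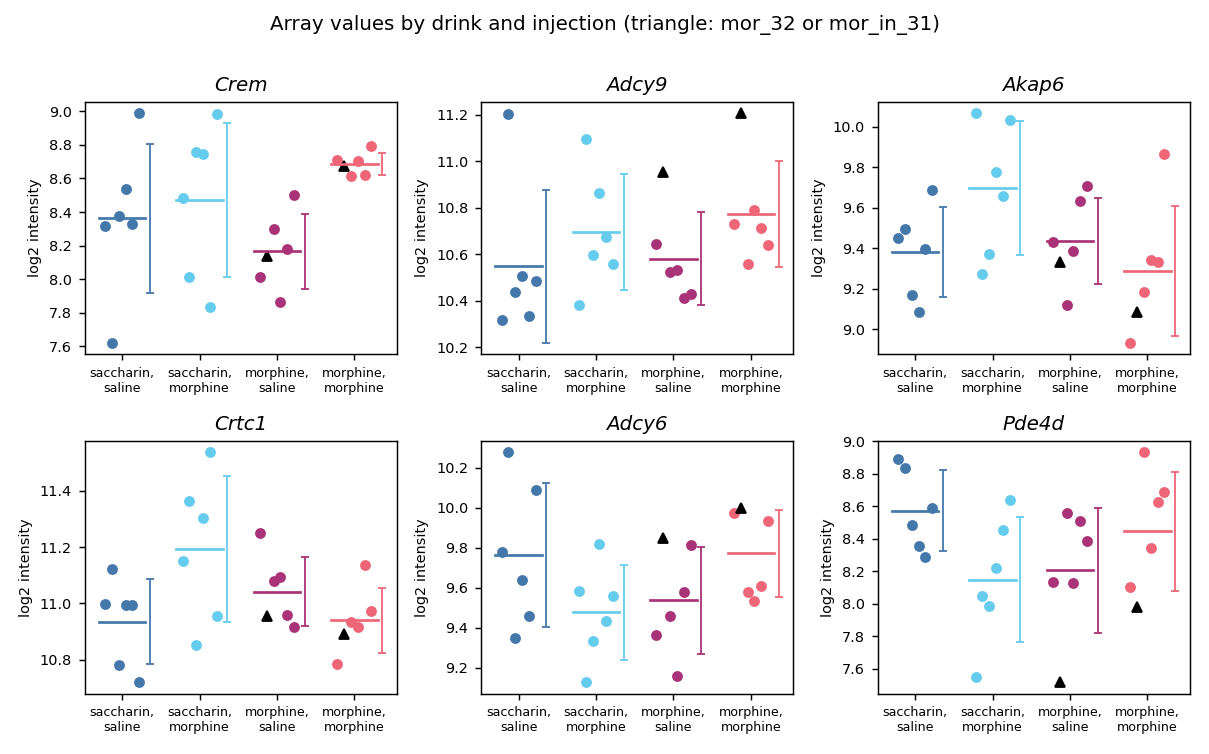
Log2 intensity (vertical axis) of Crem, Adcy9, Akap6, Crtc1, Adcy6 and Pde4d on every array, by drink and injection. Dots are arrays, lines are group means, bars are SDs (n = 6), and black triangles mark the 2 chip 2 arrays. The 6 Crem values of morphine drinkers given morphine lie between 8.61 and 8.79, above all 6 of morphine drinkers given saline. The other 5 genes overlap between groups.

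Of the 52 members, the kinase A subunits Prkacb and Prkar1a had the narrowest ranges. Over the 22 arrays the range of log2 intensity was 0.326 for the catalytic subunit Prkacb and 0.402 for the regulatory subunit Prkar1a, against a median of 1.07 over members and 1.08 over all genes. Both probes were bright, with means of 15.47 and 14.96, while the dim Pde6g, Pde6c and Pde6h had the widest ranges (2.50, 2.38 and 2.17). The part of brightness in these ranges was not tested. Prkacb had medians of 15.46, 15.51, 15.47 and 15.45. Prkar1a, whose promoter carries the perfect element, had 14.98, 14.95, 14.97 and 14.94. The 95% interval of its injection difference ran from -0.16 to 0.14 in saccharin drinkers and from -0.17 to 0.14 in morphine drinkers.

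The other catalytic subunit, Prkaca, had 13.06, 13.22 and 13.30 in saccharin drinkers given saline and 12.59, 13.01 and 13.43 in those given morphine as lowest, median and highest. The difference of -0.20 did not pass (95% interval -0.42 to 0.03). Prkar1b, a regulatory subunit of neurons, had medians of 11.88, 11.85, 11.97 and 11.80, and differed by -0.23 after the injection in morphine drinkers (SE 0.115, adjusted p = 0.809 by limma). Prkar2b, the main type II regulatory subunit of striatal neurons, had medians of 13.07, 13.24, 12.96 and 13.12. Its drink difference under morphine was -0.32 over 24 arrays and -0.04 over 22. Prkar2a lay under the filter at 6.78 and was not tested.

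Among the anchoring proteins, Akap6 (mAKAP), which anchors the kinase at the nuclear envelope of muscle and nerve cells, had the smallest p of all members for the drink under morphine. Its lowest, median and highest values were 9.28, 9.72 and 10.07 in saccharin drinkers given morphine and 8.93, 9.26 and 9.86 in morphine drinkers given morphine. After saline they were 9.09, 9.42 and 9.69 in saccharin drinkers and 9.12, 9.41 and 9.71 in morphine drinkers. The saline groups nearly coincided, and the morphine groups overlapped while the morphine drinker was lower on 6 of 6 chips. The difference was -0.41 (SE 0.118, unadjusted p = 0.00296 and adjusted p = 0.868, by limma). The interaction was -0.46 (SE 0.167, lower on 6 of 6 chips, adjusted p = 0.939 by limma) and -0.44 without the 2 arrays. Akap6 had no further probe.

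Akap5, the postsynaptic anchor of kinase A and calcineurin, had medians of 13.04, 13.31, 13.10 and 13.22. Akap9 at the Golgi and centrosome had 13.51, 13.69, 13.45 and 13.57, and Akap11, which also binds protein phosphatase 1 and GSK3, had 13.52, 13.55, 13.57 and 13.46. Akap7 had medians of 11.04, 10.87, 11.08 and 10.93 and was lower after the injection on 6 of 6 chips in morphine drinkers, by -0.23 log2 units (adjusted p = 0.885 by limma). Akap12 (gravin) had 10.05, 9.79, 9.89 and 9.80, and Akap13 had 8.08, 8.05, 7.95 and 8.07. The nuclear Akap8 differed by 0.13 averaged over the injections (adjusted p = 0.903 by limma), while its second probe gave 0.00. Akap4, known from sperm, differed by 0.43 after the injection in saccharin drinkers (adjusted p = 0.633 by limma) at a mean of 7.29, and Akap17b, by -0.13 averaged over drinks (adjusted p = 0.562 by limma).

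**Figure D3:**
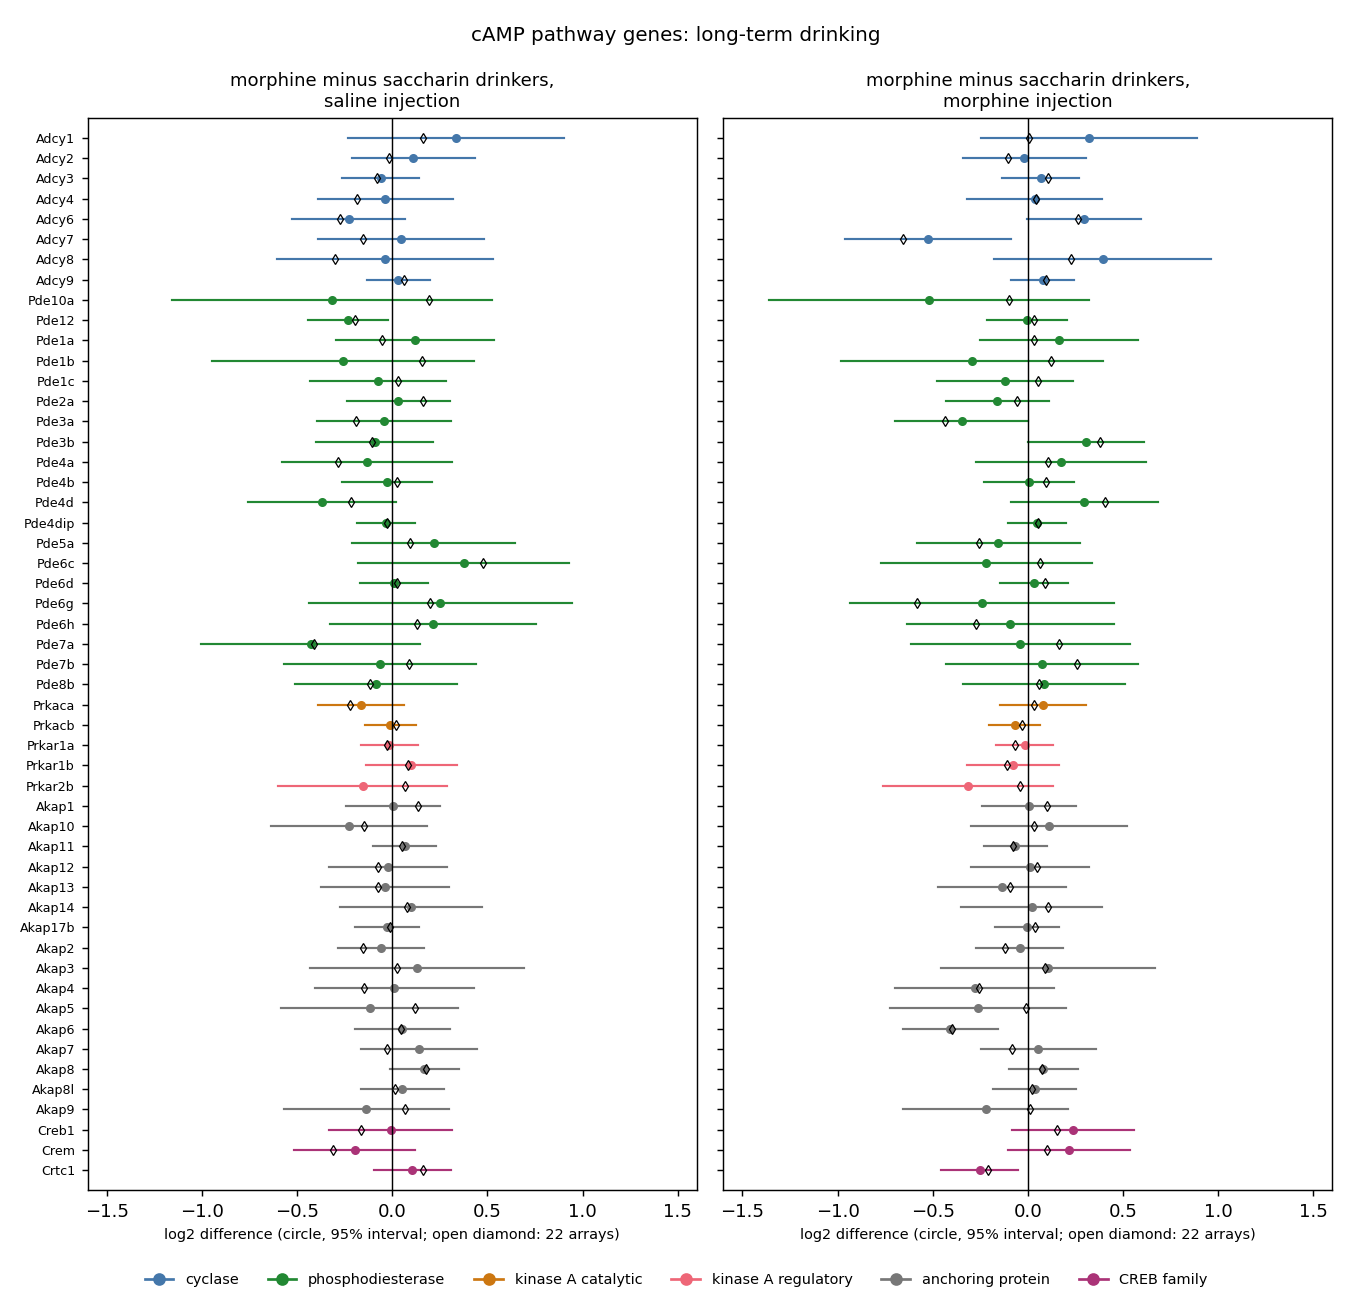
Log2 difference of morphine minus saccharin drinking (horizontal axis) for each of the 52 tested members, after a saline and after a morphine injection. Circles are values of the fit over 24 arrays with 95% intervals, and open diamonds are values without the 2 chip 2 arrays. Akap6 after morphine lies at -0.41 with and -0.40 without them, while Pde10a moves from -0.52 to -0.10.

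Of the transcription regulators, Crem, whose short form ICER is a cAMP-induced repressor, differed most in size of the members between the injections in morphine drinkers. Its lowest, median and highest values were 7.86, 8.16 and 8.50 in morphine drinkers given saline and 8.61, 8.69 and 8.79 in morphine drinkers given morphine. In saccharin drinkers they were 7.62, 8.35 and 8.99 after saline and 7.83, 8.62 and 8.99 after morphine. All 6 morphine-injected morphine drinkers were above all 6 given saline, and the saccharin drinkers overlapped over nearly their whole range. It was the only one of the 52 members whose 2 groups did not overlap in that comparison (0.378% of all genes did not overlap). In the other 3 pairwise comparisons of the injection or the drink, 0 members were free of overlap, beside 0.589%, 0.138% and 0.0727% of genes.

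The Crem difference in morphine drinkers was 0.52, or 1.43-fold (SE 0.151, unadjusted p = 0.00298 and adjusted p = 0.350, by limma), higher on 6 of 6 chips, and it was 0.52 without the 2 arrays. In saccharin drinkers it was 0.11, and the interaction of 0.41 did not pass (SE 0.214, adjusted p = 0.943 by limma). The SD of the group was 0.0660 for morphine drinkers given morphine and 0.222 to 0.458 for the others. Of the 7 Crem probes, 3 more lay above the filter and gave 0.11, 0.19 and 0.23, each with an unadjusted p above 0.05. Which transcript each probe reads, ICER or a longer form, was not determined.

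Crtc1, the CREB coactivator of neurons, was higher after the injection in saccharin drinkers on 6 of 6 chips. Its lowest, median and highest values were 10.72, 10.99 and 11.12 after saline and 10.85, 11.23 and 11.54 after morphine. In morphine drinkers they were 10.92, 11.02 and 11.25 after saline and 10.79, 10.92 and 11.14 after morphine. The ranges overlapped in both pairs. The difference was 0.26 in saccharin drinkers (SE 0.0964, adjusted p = 0.536 by limma) and -0.10 in morphine drinkers, and the interaction was -0.36 (lower on 6 of 6 chips, adjusted p = 0.939 by limma). A second Crtc1 probe gave -0.23 in saccharin drinkers, opposite in sign, and 0.11 for the interaction. Creb1 itself had medians of 8.80, 8.84, 8.82 and 8.97, and its injection difference in morphine drinkers was 0.24 (95% interval -0.08 to 0.56). Atf1 lay under the filter at 6.77.

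The separation of the 2 chip 2 arrays was larger for some members than any group difference. On both arrays 8 of the 52 members (15.4%, against 4.34% of all genes) lay below the range of the other 22, and 3 (5.77%, against 4.26%) above it. Pde1b stood at 13.22 and 13.20, against 15.23 to 15.81 on the other arrays, a gap of 2.01 log2 units or 4.02-fold. A second Pde1b probe gave 13.07 and 13.09 against 15.17 to 15.80. Pde10a stood at 8.36 and 8.74 against 10.36 to 11.67, a gap of 3.08-fold. All 23 tested markers of medium spiny neurons were low on the same arrays, and their part in the members' values was not tested.

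Akap5 stood at 11.95 on both arrays against 12.86 to 13.69, Prkar2b at 11.96 and 11.70 against 12.74 to 13.59, and Akap9 at 12.46 and 12.27 against 13.21 to 13.83. Pde1c, Pde2a and Prkacb were below by gaps of 0.29, 0.18 and 0.06 log2 units. On the high side stood Adcy1, at 12.46 and 13.14 against 10.72 to 11.97, Adcy8, at 10.87 and 10.26 against 8.36 to 10.10, and Akap2, at 10.60 and 10.56 against 9.81 to 10.52. Prkaca, Creb1, Crem and Crtc1 stayed inside the range of the 22 arrays.

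With 2 such arrays, 1 in each group of morphine drinkers, the drink differences moved most. That of Pde10a was -0.32 under saline and -0.52 under morphine over 24 arrays, and 0.19 and -0.10 over 22. That of Pde1b was -0.26 and -0.29 over 24, and 0.15 and 0.12 over 22. Akap5 under morphine went from -0.26 to -0.01 and Akap9 from -0.22 to 0.01. The SD within the Pde10a group of morphine drinkers given saline was 1.12 over 6 arrays and 0.301 over 5. None of these differences passed in either fit.

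**Figure D4:**
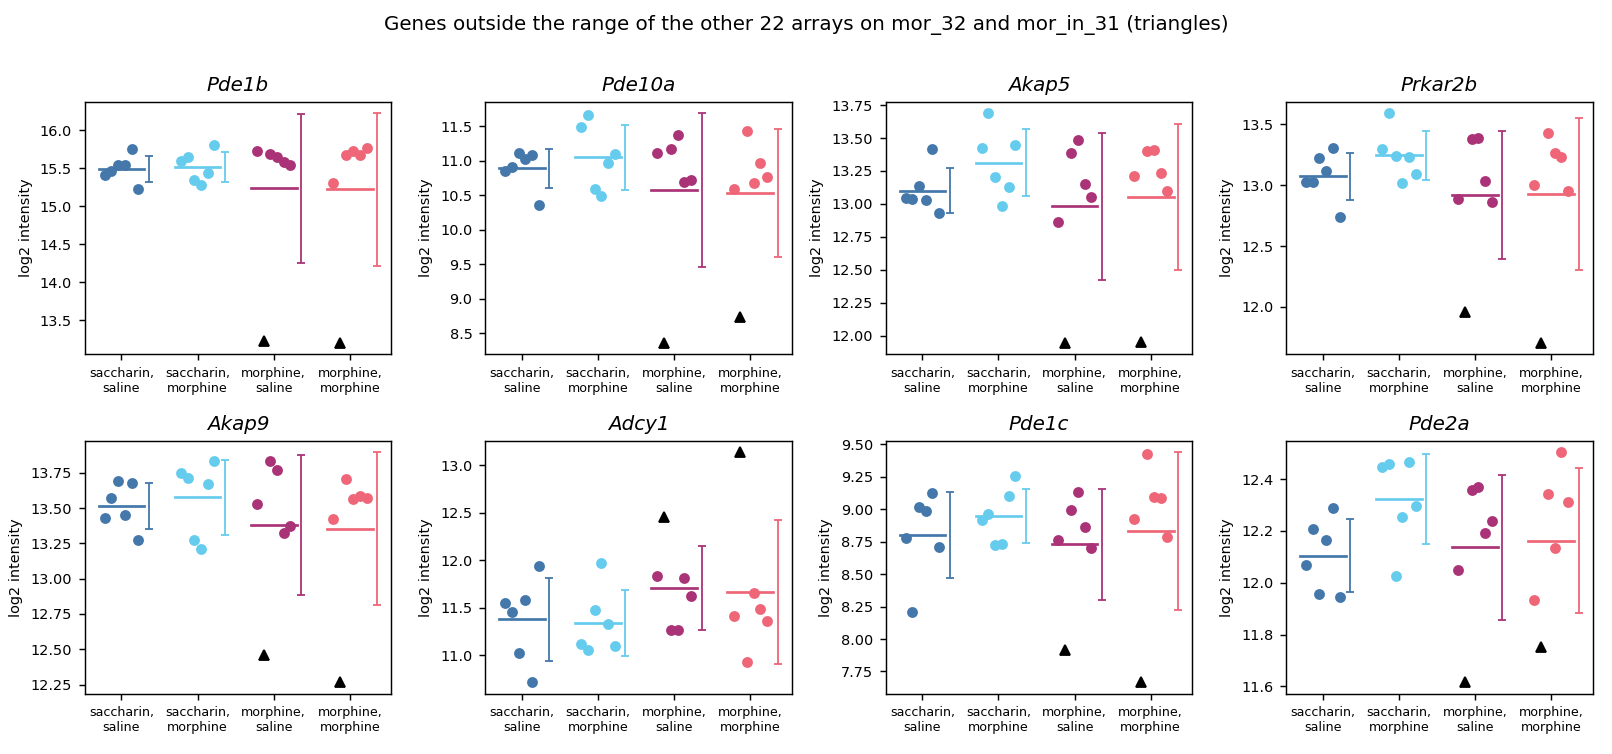
Log2 intensity (vertical axis) of Pde1b, Pde10a, Akap5, Prkar2b, Akap9, Adcy1, Pde1c and Pde2a on every array, by drink and injection. Dots are arrays, lines are group means, bars are SDs (n = 6), and black triangles mark the 2 chip 2 arrays, which lie apart from the other 22 in each panel, above them for Adcy1 and below for the rest.

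The 4 lists of other pathway genes were read beside the members, and markers of other cell types beside them. Of 19 tested upstream receptors and G proteins (27 listed), 0 passed in either direction in each of the 7 comparisons by limma. Under an unadjusted p of 0.05 were 0 to 1 over 24 arrays and 0 to 2 over 22. Of all genes, 4.58% to 8.29% were under this level in the 7 comparisons over 24 arrays, and 4.19% to 9.38% over 22. The median drink difference of the receptors and G proteins under morphine was -0.17 over 24 arrays and -0.02 over 22, against 0.01 and 0.00 over all genes. In the same comparison the median of the medium spiny neuron markers was -0.52 over 24 arrays, with 23 of 23 lower, and -0.02 over 22. Some genes, such as Drd1, Drd2 and Adora2a, are in both lists.

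Of 12 further CREB family members and coactivators, 0 passed in each comparison by limma, with 0 to 3 under the unadjusted level over 24 arrays and over 22. The 3 were for the drink under saline over 24 arrays (4.58% of all genes) and for the injection in morphine drinkers over 22 (7.09%). Of 19 other kinase A and cAMP effectors and inhibitors (22 listed), 0 passed over 24 arrays, with 0 to 2 under the unadjusted level. Over 22 arrays 1 rose, where 0.436% of all genes were called. This was Rapgef2, a Rap exchange factor, after the injection in saccharin drinkers (0.40, adjusted p = 0.0387 over 22 arrays and 0.0708 over 24, by limma). Its difference was the same in both fits, since neither array left out is in that comparison. In that comparison 4 of the 19 were under the unadjusted level, against 9.38% of all genes, and 0 to 3 in the others.

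Of 20 tested genes known to be induced by cAMP through CREB (24 listed), 0 passed in each of the 7 comparisons by limma. Under the unadjusted level were 1 to 3 over 24 arrays. Over 22 arrays there were 6 for the injection averaged over drinks, against 9.16% of all genes, and 0 to 3 in the others. The early genes Egr1 and Fos differed by -0.44 and -0.90 after the injection in saccharin drinkers (adjusted p = 0.292 and 0.464, by limma). For the drink under saline they differed by -0.49 and -0.69 (both adjusted p = 0.988 by limma). Their interactions were 0.63 and 0.89 (adjusted p = 0.939 and 0.943, by limma). The saccharin drinkers given saline enter each of these differences. Some of the 20, such as Penk and Pdyn, also served as medium spiny neuron markers.

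The median of the CREB-induced genes for the drink under saline was -0.23, with 16 of 20 lower, and -0.13 with 14 of 20 lower over 22 arrays, against 0.00 and -0.01 over all genes. The medium spiny neuron markers stood at -0.33 there, with 23 of 23 lower, and at 0.14 with 20 of 23 higher over 22. Over 22 arrays the cortical projection neuron markers stood at 0.28, with 9 of 12 higher, and those of thalamus, septum and hypothalamus at -0.24, with 9 of 11 lower. The median interaction of the CREB-induced genes was 0.18, with 15 of 20 higher, and 0.16 with 14 of 20 higher over 22 arrays, against 0.00 and 0.01 over all genes. In it, over 24 arrays, the medium spiny neuron markers stood at -0.19 (19 of 23 lower) and the cortical markers at -0.33 (8 of 12 lower). Markers of blood stood at -0.61 (4 of 4 lower), choroid plexus at -0.28 (4 of 4), endothelium at -0.17 (6 of 8) and microglia at -0.08 (9 of 10). Those of thalamus, septum and hypothalamus stood at 0.14 (7 of 11 higher), astrocytes at 0.12 (7 of 10) and oligodendrocytes at 0.08 (7 of 8). Over 22 arrays the microglia markers stood at 0.06, with 8 of 10 higher. The part of these markers in the lists' medians was not tested.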

How the data were processed

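One of the deposited tables holds linear intensity per probe from Illumina mouse beadchips, and its values show no normalization between arrays. Per the labels' protocols, biotinylated cRNA was made from Trizol-extracted total RNA. The labels name neither the scanner software nor a background subtraction. The other deposited table holds log2 values, within 0.0351 of quantile-normalized log2 intensities and not centred on 0, which chose the brightest probe per gene and served as an alternative.

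Intensities were corrected by normexp (offset 50), put on the log2 scale and quantile-normalized in limma 3.58.1 under R 4.3.3. Median raw intensity was 164 to 543, and arrays correlated at 0.937 to 0.993. Of 45281 probes, 34885 had 1 gene symbol in the platform annotation, 18 several and 10378 none listed. Genes were fitted with lmFit and eBayes over 24 arrays, with group and chip (6 chips, each with 1 array of each group) as fixed terms, and with two-sided p-values adjusted by Benjamini-Hochberg over 13748 genes. The number of arrays limits the precision: the median SE of a member's difference between 2 groups was 0.156. Nothing in the labels pairs animals across groups.

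The members, markers and lists were chosen with earlier results of these data known. Named with values were members past the threshold, the 5 of smallest p in each comparison, 32 landmark genes, and members with both chip 2 arrays outside the range of the other 22. Medians of the remaining members are not printed. For the 5 smallest p of the 7 comparisons, 19 of 30 differences on further probes had the same sign, and 0 of those an unadjusted p under 0.05. Alternatives were: no background correction, cyclic loess or median scaling, the deposited log2 values, other filters, the mean of a gene's probes, chip dropped or random, only the compared groups, array weights, a trended robust prior, and each array, each chip or both chip 2 arrays left out. Of the 61 symbols, 60 matched RefSeq by Entrez number, with Akap2 unmatched. Figures were drawn with matplotlib 3.10.9.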

Additional observations from a re-analysis of the deposited data

Results flagged for a closer look

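In 21 of 156 groups of 6 arrays of the named members, 1 array stood apart by Dixon's criterion (its gap to the nearest array over 0.625 of the range). Chance flags about 1 in 20 groups, and 15 of the 21 were on the 2 chip 2 arrays. Of these 15, 12 were of members named because both of these arrays lay outside the range of the other 22, so neither their number nor their place can be read against chance.

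In morphine drinkers given saline, replicate 32 stood low for Pde1b (13.22, next 15.54), Pde10a (8.36, next 10.70), Akap9 (12.46, next 13.32), Prkar2b (11.96, next 12.86) and Pde1c (7.92, next 8.70), and high for Akap7 (11.59, next 11.16). In the same group replicate 41 was high for Adcy3 (9.57, next 9.30).

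In morphine drinkers given morphine, replicate 31 stood low for Pde1b (13.20, next 15.31), Pde10a (8.74, next 10.58), Akap5 (11.95, next 13.10), Akap9 (12.27, next 13.42), Prkar2b (11.70, next 12.95), Pde1c (7.67, next 8.78) and Pde7a (7.64, next 8.47). It stood high for Adcy1 (13.14, next 11.66) and Adcy9 (11.21, next 10.79).

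In saccharin drinkers given saline, replicate 8 was low for Pde10a (10.36, next 10.85) and Prkar1a (14.90, next 14.98) and high for Prkar1b (12.74, next 11.99). Its mean of medium spiny neuron markers, 12.07, was the lowest of the 22 arrays, and its mean of cortical projection neuron markers was 11.04. Replicate 10 was high for Adcy9 (11.20, next 10.51). In saccharin drinkers given morphine, replicate 11 was high for Pde8b (9.72, next 8.73).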

How the results depend on the processing

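In 43 alternative settings the number of members past the threshold was 0, as in the fit reported, in all but 1 of 340 counts. The exception was limma's array weights for the injection averaged over drinks, with 1 member past the threshold (Adcy9, 0.21, adjusted p = 0.0266). Leaving out 1 array at a time gave counts from 0 to 0 in every comparison. Of 1481 differences of leading members under the alternatives, 1479 kept their sign, and with the mean of a gene's probes Adcy6 (injection, morphine drinkers) was -0.17 and Akap8 (drink, saline) -0.02. Over all genes the counts called ran from 10 to 71 (51 in the fit reported) for the injection in saccharin drinkers, from 2 to 63 (9) in morphine drinkers, from 22 to 169 (95) averaged, and from 8 to 89 (53) for the F test. Scaling to a common median moved the median interaction of all genes from 0.00 to 0.10. No paired analysis was possible because the replicate numbers in the labels differ between the groups. The chip, with 1 array of each group, was a block in the fit reported. The percentile filter left 9 members untested, Adcy5 among them, with no measure of signal over background. On replicates 32 and 31 the mean of astrocyte markers was 12.80 and 12.72 against 12.17 to 12.57, and of oligodendrocyte markers 12.48 and 12.45 against 12.50 to 13.01.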
